A study of Arabidopsis thaliana with 24 samples.

Results

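Of the 22810 probe sets of the ATH1 array, 146 had a level at least 4 times higher after chitin than after mock treatment in wild-type *Arabidopsis thaliana* seedlings and, in the same direction, in seedlings of both mutant lines. These 146 members were chosen by that measurement itself. Each deposited intensity was divided by the median of its array (control probe sets left out) and converted to log2, and the 4 arrays of a group were averaged. A member had a response (chitin minus mock, log2) of at least 2 and a chitin level of at least 1 (log2), or 2 times the array median, in each of the 3 lines. The thresholds left 155 of 22746 non-control probe sets (0.681%), from which 9 named genes were set aside (*AT4G15975*, *CML37*, *WRKY53*, *WRKY22*, *AT1G07160*, *AT1G20823*, *AT1G66090*, *AT1G72950* and *PUB23*). The annotation used here gave 1 gene for 76 members, several genes for 1 member and no entry for 69, which are called by their probe set.

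The plants were Col-0 (Columbia-0, the wild type), *atl9* (*rre1-1*, with a T-DNA insertion in At2g35000, *ATL9*) and *rre2* (*rre2-1*, with a T-DNA insertion in At3g16720, *ATL2*). Both disrupted genes encode RING-domain proteins of the type found in E3 ubiquitin ligases, and each mutant was represented by 1 insertion line, so that an effect of the gene and of other changes in that line cannot be told apart. Seedlings grew in liquid Murashige and Skoog medium under constant light for 14 days and then received acid-hydrolysed crab-shell chitin at 100 mg per L, or the same volume of water (mock), for 30 min. Whole seedlings were harvested, and each of the 6 groups had 4 arrays, which the labels call biological replicates. The description of the chitin-treated Col-0 samples calls them untreated whereas their titles and source names give chitin, and they were taken as chitin. The transcripts of *ATL9* and *ATL2* were not analysed here, so the genotypes rest on the labels.

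Chitin is a polymer of N-acetylglucosamine in fungal cell walls. Plants perceive its fragments through receptor kinases with extracellular LysM domains, and perception is followed within minutes by a calcium influx, an oxidative burst, activation of MAP kinases and new transcription. The first wave of this transcription is known for transcription factors, calcium-binding proteins, E3 ubiquitin ligases, small secreted peptides and enzymes that act on cell walls.

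Array medians ran from 138.7 to 189.3 deposited units, with mock arrays at 161.6 to 189.3 and chitin arrays at 138.7 to 168.0, and dividing by them removed this difference. Every group had 2 arrays from the last of 4 scan days and 2 from earlier days. Fluidics modules 1 and 3 held the mock arrays, while the chitin arrays were on modules 2 and 4, and an effect of the module cannot be told apart from that of the treatment. In these whole seedlings, the 14 shoot markers (photosynthesis genes) had median levels of 11.7 to 24.2 times the array median in the 6 groups. The 3 root markers had 7.31 to 9.35 times. The dimmest shoot marker of a group was at 0.50 (mock-treated Col-0) to 0.76 (mock-treated *atl9*) times the array median. The summed shoot markers were highest in chitin-treated Col-0 (335, against 212.9 to 265 in the other groups). So were 8 reference genes (summed level 122, against 77.8 to 89.0), which were tubulin genes apart from *PEX4*. In whole seedlings, a change in the share of a cell type and a change of RNA per cell cannot be told apart.

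The middle member had a response of 2.63 in Col-0 (6.18-fold), 2.99 in *atl9* (7.97-fold) and 3.06 in *rre2* (8.35-fold), while the median over the brightest 72.7% of non-control probe sets, called the tested probe sets below, was 0.05, 0.01 and 0.00. These responses chose the members and are given as a description. Taken alone, a response of at least 2 was met by 335 probe sets in Col-0 (1.47%), 461 in *atl9* (2.03%) and 608 in *rre2* (2.67%). Of these, 180 met it in all 3 lines (0.791% of all), which is 53.7% of the Col-0 set, 39.1% of the *atl9* set and 29.6% of the *rre2* set. The remaining 25 of the 180 fell short of the chitin level. In the opposite direction, 1 probe set had a response of -2 or less in all 3 lines (0.0044%).

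Chitin and mock levels of the members did not overlap on any array within a line. The lowest chitin array was above the highest mock array for 146 of 146 members in Col-0, in *atl9* and in *rre2*, where 10.7%, 7.81% and 8.19% of all non-control probe sets had that order. Since the rule used the same contrasts, nothing is read from these counts. Members started from very different mock levels. In every line, 33 members had mock levels of at least 4 times the array median and 41 were below the array median. These 41 had a median response (mean of the 3 lines) of 3.71 and the other 105 members 2.72. With 32 units added to every intensity, which damps the noise of dim probe sets, the same medians were 3.11 and 2.63.

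**Figure D1:**
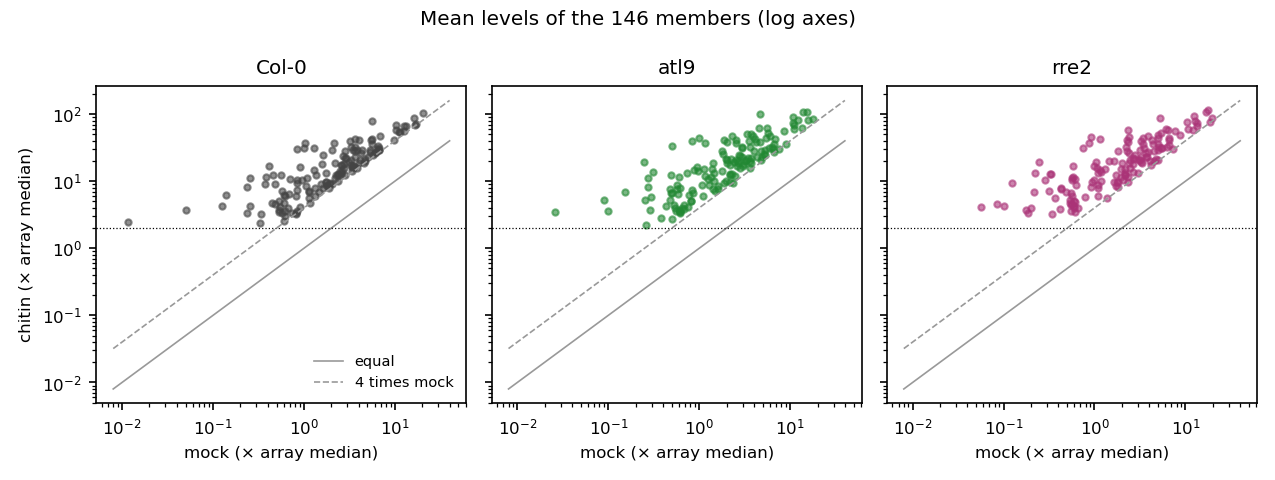
Mean level of each of the 146 members in mock (horizontal axis) and chitin (vertical axis) seedlings of each line, in multiples of the array median on log axes; each point is the mean of 4 arrays on the log2 scale, the solid line marks equal levels, the dashed line 4 times the mock level and the dotted line the minimum chitin level. All points lie on or above the dashed line, and the 41 members below the array median in mock in every line spread farthest from it.

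Members and non-members on either side of the threshold had nearly the same values. *AT1G78410*, which encodes a VQ-motif protein, was the annotated member nearest to it, with responses of 2.11, 2.01 and 2.67 in Col-0, *atl9* and *rre2*. The chitinase family gene *AT4G01700* followed with 2.3, 2.01 and 2.5. Just outside were *ZCF37* (2.11, 2.57 and 2.00, the last at 1.9999) and *AT1G20310* (1.99, 2.83 and 2.61). In all, 46 members had a response of at least 3 in every line, 17 of at least 4 and 8 of at least 5.

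The 6 annotated members with the largest mean response had mock levels from far below the array median to about the median. *AT1G07160*, set aside by name and not ranked here, had responses of 4.98, 6.75 and 5.89 in Col-0, *atl9* and *rre2*. *AT4G18540*, a gene without a known role, led the 6 members. In mock seedlings its level was 0.0138, 0.0276, 0.171 and 0.0991 times the array median on the 4 Col-0 arrays, 0.0185, 0.0191, 0.0113 and 0.110 on the *atl9* arrays and 0.0993, 0.0109, 0.0384 and 0.234 on the *rre2* arrays. After chitin it was 3.70, 3.57, 4.25 and 3.40 in Col-0, 2.5, 5.72, 2.98 and 3.55 in *atl9* and 4.75, 5.00, 3.42 and 3.77 in *rre2*. The mock arrays spread over more than a factor of 10 and the chitin arrays lay close together, well above all of them. The response was 6.20 ± 0.83 in Col-0, 7.09 ± 0.76 in *atl9* and 6.23 ± 0.96 in *rre2* (SE, n = 4 arrays per group, as for all responses here). Its mock intensities were 1.9 to 39.5 deposited units, and with 32 units added the responses were 3.93, 4.08 and 4.00.

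*AT2G36440*, also without a known role, had the lowest mean mock level of all members in Col-0. Its mock levels were 0.0111, 0.00647, 0.0368 and 0.00695 times the array median in Col-0, 0.149, 0.0960, 0.177 and 0.0375 in *atl9* and 0.0391, 0.0429, 0.155 and 0.196 in *rre2*. Chitin-treated seedlings had 1.49, 4.16, 2.51 and 2.29 in Col-0, 5.32, 3.72, 3.12 and 2.82 in *atl9* and 3.16, 5.20, 6.66 and 3.89 in *rre2*. All 4 Col-0 mock arrays were below every mutant mock array. Its response, 7.71 ± 0.66 in Col-0, 5.20 ± 0.54 in *atl9* and 5.75 ± 0.65 in *rre2*, varied most over the lines of all members (range 2.51). The mock intensities were 1.1 to 33.1 deposited units, and with 32 units added the responses were 3.73, 3.71 and 4.04, no longer highest in Col-0.

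*AT4G04480*, without a known role, stood at 0.0271, 0.239, 0.295 and 0.200 times the array median on the Col-0 mock arrays, at 0.126, 0.122, 0.165 and 0.208 on the *atl9* mock arrays and at 0.218, 0.113, 0.0811 and 0.122 on the *rre2* mock arrays. The chitin arrays read 7.82, 4.54, 7.04 and 5.67 in Col-0, 3.88, 12.9, 6.82 and 6.49 in *atl9* and 11.2, 10.0, 8.02 and 8.36 in *rre2*. Replicate 1 of mock-treated Col-0 lay far below its group. The response was 5.46 ± 0.82 in Col-0, 5.50 ± 0.40 in *atl9* and 6.22 ± 0.32 in *rre2*.

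*AT3G12910* encodes a transcription factor of the NAC family, plant-specific regulators of stress and development. Its mock levels were 0.0702, 0.429, 0.427 and 0.247 times the array median in Col-0, 0.270, 0.420, 0.236 and 0.211 in *atl9* and 0.0961, 0.261, 0.338 and 0.287 in *rre2*. With chitin they were 7.33, 8.80, 9.58 and 7.40, 8.16, 15.3, 11.9 and 10.5 and 13.5, 15.6, 14.6 and 10.6 in the same order of lines. The lowest mock arrays were replicate 1 of Col-0 and replicate 1 of *rre2*. The response was 5.11 ± 0.62 in Col-0, 5.35 ± 0.29 in *atl9* and 5.92 ± 0.43 in *rre2*.

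*AT1G22810* encodes a transcription factor of the ERF (AP2) family, which binds ethylene-response and related promoter elements. Mock arrays gave 0.0967, 0.238, 0.0445 and 0.242 times the array median in Col-0, 0.201, 0.0275, 0.167 and 0.0671 in *atl9* and 0.109, 0.0366, 0.107 and 0.255 in *rre2*. Chitin arrays gave 5.28, 3.19, 3.49 and 5.73, 3.70, 8.48, 6.44 and 3.54 and 4.69, 4.26, 4.01 and 3.91. The 4 *rre2* chitin arrays were the closest together of the 6 groups. The response was 5.09 ± 0.62 in Col-0, 5.87 ± 0.73 in *atl9* and 5.36 ± 0.58 in *rre2*, or 3.76, 4.21 and 3.84 with 32 units added.

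*AT3G02840* encodes an ARM-repeat protein of a family first known for its immediate-early induction by fungal elicitor. Its mock levels, 0.706, 1.88, 1.01 and 0.765 times the array median in Col-0, 1.34, 0.645, 0.815 and 0.677 in *atl9* and 0.543, 1.04, 1.18 and 0.841 in *rre2*, were the highest of the 6 genes. They stood against 33.5, 28.5, 32.6 and 32.2 in chitin-treated Col-0, 34.3, 44.5, 38.9 and 41.9 in *atl9* and 37.8, 31.9, 39.2 and 40.1 in *rre2*. This was the gene among the 6 with the smallest spread between chitin arrays of Col-0, and its response was 4.98 ± 0.32 in Col-0, 5.58 ± 0.25 in *atl9* and 5.42 ± 0.26 in *rre2*.

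**Figure D2:**
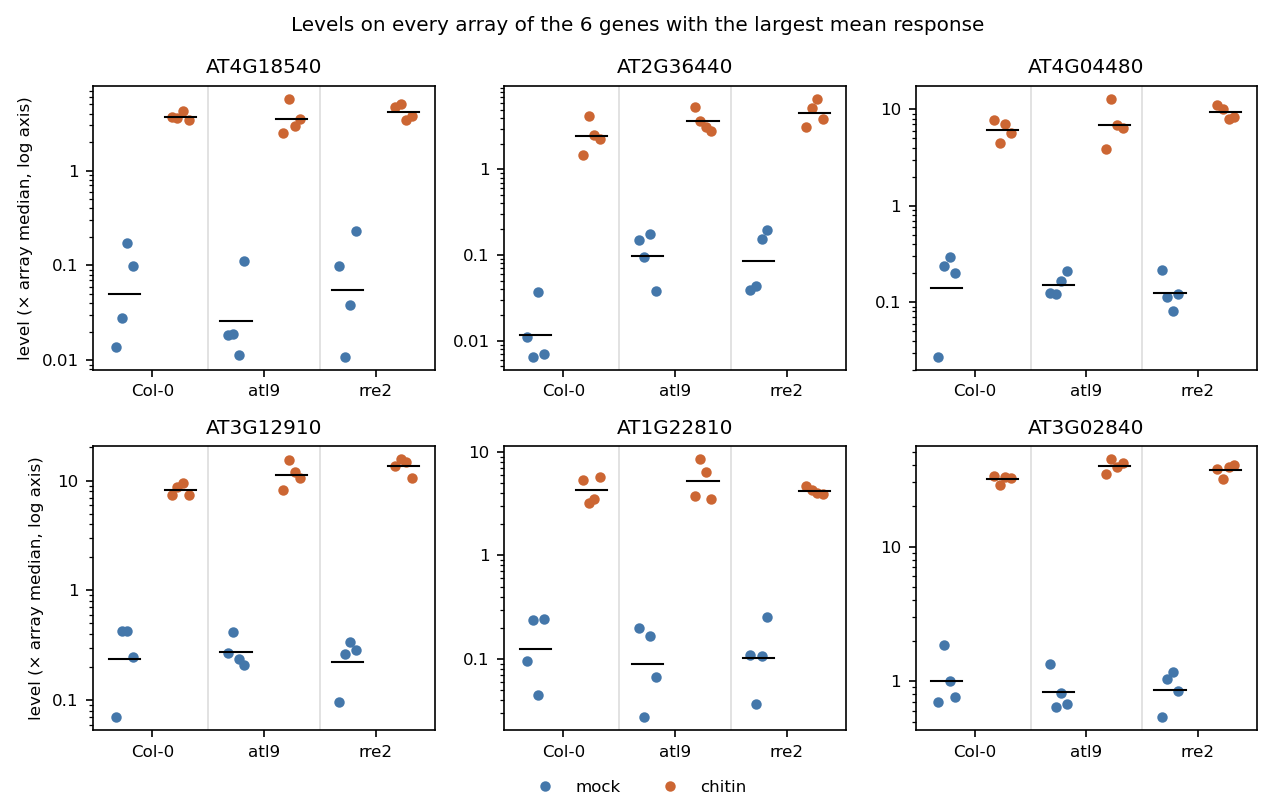
Level of the 6 annotated members with the largest mean response on every array, in multiples of the array median on a log axis. Blue points are mock arrays, orange points chitin arrays, and bars the mean of 4 arrays on the log2 scale. Every chitin array lies above every mock array, and the mock points of *AT4G18540* and *AT2G36440* spread over more of the axis than their chitin points.

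A role could be given from general knowledge of the gene family for 53 of the 76 annotated members, since the annotation itself holds mostly locus codes. The next paragraphs take these by role and give responses in the order Col-0, *atl9*, *rre2*.

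The group of transcriptional regulators had 7 members, with median responses of 2.73, 3.24 and 3.09. Beside the NAC and ERF genes above it held a second ERF gene, *AT2G33710*, with responses of 2.63, 3.13 and 3.09. *STZ* (*ZAT10*), a C2H2 zinc-finger repressor known from stress responses, was among the brightest members. Its mock arrays read 17.1, 24.4, 16.5 and 24.4 times the array median in Col-0, 21.6, 13, 12.6 and 15.8 in *atl9* and 11.2, 16.3, 27.8 and 20.4 in *rre2*. Under chitin it reached 125, 92.6, 92.7 and 102, 92.4, 125, 105 and 116 and 108, 105, 116 and 127. Its response, 2.34 ± 0.19 in Col-0, 2.82 ± 0.20 in *atl9* and 2.67 ± 0.28 in *rre2*, was modest among the members although its chitin level was the highest of them. Genes for VQ-motif proteins, which bind WRKY factors and other partners, made up the rest of the 7. *AT2G22880* had responses of 3.62, 3.90 and 3.62, *AT4G20000* of 2.73, 3.24 and 2.48 and *AT1G78410*, given above, lay at the threshold.

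Small secreted peptides had the second highest median responses of the role groups, 3.54, 4.22 and 4.18 over 5 genes. *AT4G28460*, *AT4G37290* and *AT2G23270* encode members of the PIP family, PAMP-induced peptides that are perceived outside the cell and amplify immune signaling. *AT4G28460* had chitin levels of 31.5, 37.2 and 43.6 times the array median and responses of 4.60 ± 0.59 in Col-0, 4.99 ± 0.26 in *atl9* and 5.23 ± 0.43 in *rre2*. Its mock level was 4.18 times the array median on replicate 2 of Col-0 and 0.69 to 1.14 times on the other 3 Col-0 arrays. *AT2G23270* followed with 3.54 ± 0.36 in Col-0, 4.22 ± 0.33 in *atl9* and 4.63 ± 0.41 in *rre2*, and again replicate 2 of mock-treated Col-0 was high (7.77, against 2.60 to 3.04 times the array median on the others). *AT4G37290* differed more between the lines, with 2.24 ± 0.29 in Col-0, 3.42 ± 0.26 in *atl9* and 3.65 ± 0.45 in *rre2*. The remaining pair are IDA-like peptides, related to the abscission signal IDA. *AT5G05300* (*IDL6*) had responses of 3.84, 4.48 and 4.18 and *AT3G10930* (*IDL7*) of 2.28, 2.49 and 2.37.

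The ARM-repeat and U-box genes, 3 members, had the highest median responses (4.90, 5.45 and 5.30). *AT5G37490* encodes the plant U-box protein PUB21, of a family of E3 ubiquitin ligases. Its mean mock levels were 0.411, 0.333 and 0.343 times the array median and its mean chitin levels 11.5, 13.7 and 12.9, a response of 4.90 ± 0.33 in Col-0, 5.45 ± 0.31 in *atl9* and 5.30 ± 0.25 in *rre2*. *AT3G02840* was described above, and *AT5G58680*, another ARM-repeat gene, had 2.72, 3.78 and 3.40. A further 2 U-box genes near this group, *PUB24* and *PUB22*, were not members: *PUB24* had responses of 1.92, 2.21 and 2.04 and *PUB22* of 1.85, 2.5 and 2.76.

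Calcium signaling was represented by 6 members, with median responses of 2.51, 2.96 and 2.60. *GLR2.8*, a glutamate receptor-like ion channel, combined low mock levels (0.239, 0.270 and 0.209 times the array median) with responses of 3.84 ± 0.20 in Col-0, 3.09 ± 0.29 in *atl9* and 4.19 ± 0.50 in *rre2*, the highest of the group in Col-0 and *rre2*. Its family neighbour *GLR2.9* had 3.33, 2.42 and 3.79 but did not reach the chitin level set for a member. The EF-hand genes were brighter. *AT4G27280* rivalled *STZ*, with mean mock levels of 16.3, 14.3 and 17.4 and mean chitin levels of 88.4, 107 and 109.9 times the array median and responses of 2.46, 2.94 and 2.70. *AT3G01830* (*CML40*) had 2.93, 3.18 and 3.17 and *AT5G39670* 2.16, 2.21 and 2.06. *AT2G26190*, for a calmodulin-binding protein, had 2.25, 2.40 and 2.41, and *AT5G66650*, of the calcium uniporter family, had 2.57, 2.98 and 2.51.

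The 3 kinase genes all lay in the lower part of the members, with median responses of 2.22, 2.60 and 2.58. They were *AT5G46080* (2.25, 2.75 and 2.83), the S-locus lectin receptor kinase gene *AT1G61360* (2.22, 2.60 and 2.58) and *AT1G67470* (2.12, 2.16 and 2.05), a relative of the pseudokinase ZED1. A further 4 genes encode known or presumed immune components, with medians of 2.80, 2.77 and 2.98. *AT3G55840*, a homolog of the nematode resistance gene Hs1pro-1 of beet, led with 4.63 ± 0.16 in Col-0, 4.66 ± 0.19 in *atl9* and 5.26 ± 0.28 in *rre2* and went from mean levels of 0.377, 0.501 and 0.350 to 9.29, 12.5 and 12.7 times the array median. *AT5G64870* encodes a flotillin of plasma membrane microdomains and had 3.13, 3.11 and 3.40. *AT5G05190* (*EDR4*), a regulator of powdery mildew resistance, had 2.47, 2.43 and 2.55 with standard errors of 0.05, 0.05 and 0.18. The TIR-domain gene *AT5G44910* had 2.22, 2.27 and 2.17.

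A group of 10 genes encodes enzymes and defence proteins that pass through the secretory pathway, and their median responses were 2.58, 2.78 and 2.82. The aspartyl protease gene *AT5G48430* had 4.49 ± 0.18 in Col-0, 4.29 ± 0.36 in *atl9* and 4.29 ± 0.35 in *rre2*, the largest of the group in Col-0 and *atl9*, and a second aspartyl protease gene, *AT3G59080*, had 2.28, 2.64 and 2.71. Both genes of the chitinase family, enzymes that cleave chitin, were bright. *AT1G02360* had mean mock levels of 2.71, 2.63 and 2.37 and chitin levels of 23.5, 20.7 and 26.6 times the array median, with responses of 3.12, 3.02 and 3.48. *AT4G01700* stood higher, at 11.2, 9.16 and 8.70 in mock and 54.4, 36.6 and 49.4 after chitin. The class III peroxidase gene *AT5G39580* had 2.75, 2.57 and 2.95. A second peroxidase gene, *AT1G14550*, had 2.86 ± 0.71 in Col-0, 2.92 ± 0.44 in *atl9* and 4.41 ± 1.48 in *rre2*, and its large error in *rre2* came with 1 mock array at 0.00887 times the array median, against 0.28 to 0.72 on the other 3. *XTH18*, a xyloglucan endotransglucosylase that remodels cell walls, had 2.16, 2.03 and 2.86. The matrix metalloproteinase gene *AT1G24140* had 2.62, 3.14 and 2.79, the glycosyltransferase gene *AT2G41640* 2.47, 3.22 and 2.68 and *AT4G07820*, of the PR-1 (CAP) family, 2.55, 2.55 and 2.78.

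Metabolism and transport made up another 10 members, with medians of 2.49, 2.57 and 3.14. *CCR2* encodes a cinnamoyl-CoA reductase of the lignin pathway and had responses of 2.08 ± 0.13 in Col-0, 2.46 ± 0.25 in *atl9* and 2.94 ± 0.09 in *rre2*. The related gene *AT5G14700* had 2.21 ± 0.16 in Col-0, 3.15 ± 0.17 in *atl9* and 3.26 ± 0.22 in *rre2*. *DLAH*, a lipase of the DAD1-like acylhydrolase family, had 2.72, 3.46 and 3.60, and *HEMA2*, a glutamyl-tRNA reductase of tetrapyrrole synthesis, had 2.11, 2.52 and 2.52. *AT5G52050*, a MATE efflux carrier, had 2.02, 2.51 and 3.14, so that its response in *rre2* exceeded that in Col-0 by 1.11. *AT4G39670*, for a glycolipid transfer protein, stood at chitin levels of 46.9, 47.7 and 60.7 times the array median with responses of 2.74, 2.94 and 3.32. The dioxygenase gene *AT2G36690* had 2.90, 2.63 and 2.86 and *AT5G52760*, for a heavy-metal-associated domain protein, had 2.51, 2.33 and 3.14. A pair of acetyltransferase genes, *AT2G32020* (2.46, 2.31 and 2.59) and *AT2G32030* (2.97, 3.36 and 3.23), lie next to each other with 0 protein-coding genes between them.

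Another 5 members encode proteins with C1 domains or ankyrin repeats. *AT2G44370* (C1) had 4.75 ± 0.14 in Col-0, 3.67 ± 0.21 in *atl9* and 4.20 ± 0.46 in *rre2*, against responses of 2.01 to 2.71 for *AT2G42060*, *AT2G27660*, *AT1G14480* and *AT5G54720*. The other 23 annotated members were without a role here. Beside *AT4G18540*, *AT2G36440* and *AT4G04480* they included *AT1G58420* (4.17, 4.13 and 4.84), *AT1G49000* (4.25, 4.03 and 3.78), *AT5G28610* (3.44, 4.32 and 4.49) and *AT5G28630* (2.37, 3.35 and 3.79). The brightest of them was *AT1G05575*, with mean mock levels of 10.4, 11.1 and 13 and mean chitin levels of 69.3, 90.7 and 93.4 times the array median.

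**Figure D3:**
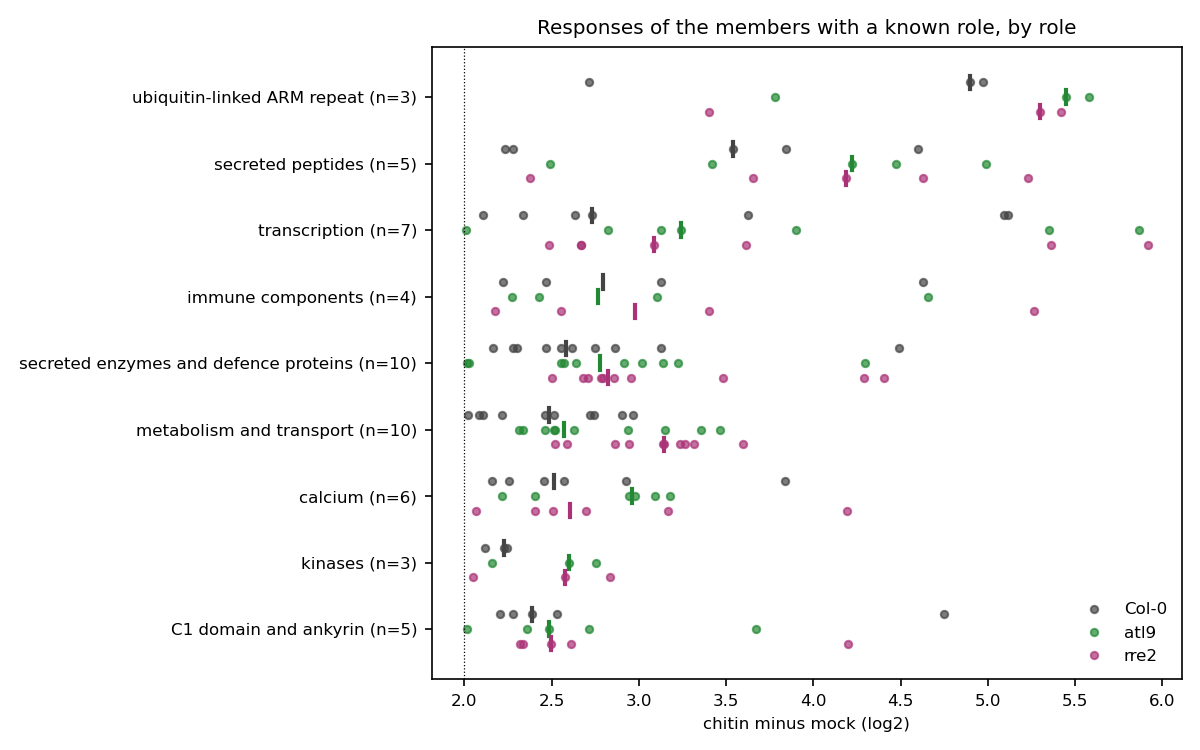
Response (chitin minus mock, log2) of the 53 members with a known role, by role and line; each point is 1 gene, short vertical bars are medians and the dotted line is the threshold of 2. Secreted peptides and the ARM-repeat and U-box genes have medians above 3.5 in every line and the kinase genes lie below 3.

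The members without an annotation entry covered the same range. Their medians, taken with the 1 probe set of several genes, were 2.63, 2.97 and 3.04, against 2.62, 3.02 and 3.11 for the 76 annotated members. The largest responses were those of 248775_at (5.31, 6.29 and 6.30), 245613_at (5.16, 6.04 and 5.38), 266010_at (5.20, 5.48 and 5.61) and 249770_at (5.48, 4.94 and 5.21). The highest chitin levels among them in Col-0 and *atl9* belonged to 254120_at, at 78.9, 99.4 and 88.0 times the array median, and 263379_at had 70.2, 86.5 and 89.2, the highest in *rre2*.

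Across the lines the responses were mostly close, and the smallest was most often in Col-0. The range over the 3 lines was under 1 for 127 members, with a median of 0.51. Col-0 had the smallest response for 94 members, *atl9* for 31 and *rre2* for 21. The largest was in Col-0 for 13, in *atl9* for 61 and in *rre2* for 72. A larger response in *atl9* than in Col-0 was seen for 110 members (median difference 0.31), beside 47.9% of the tested probe sets (median -0.02, or 51.9% and 0.02 on the values as deposited). For *rre2* the count was 117 (median difference 0.27), beside 46.9% (median -0.03). Both comparisons share the Col-0 arrays, and both use the values that chose the members, so that these are descriptions without a test. Other scalings gave 113 to 121 members for *atl9* and 119 to 122 for *rre2*.

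Largest among the departures, after *AT2G36440*, were those of *AT1G14550* (range 1.54), *AT5G28630* (1.42) and *AT4G37290* (1.42), each smallest in Col-0. The tubulin genes among the reference genes also moved in Col-0. The median response of the 8 reference genes, tubulin genes apart from *PEX4*, was 0.41 in Col-0, -0.10 in *atl9* and 0.06 in *rre2*. *PEX4* itself had 0.13, 0.17 and 0.06. The median of the 14 shoot markers was 0.33, 0.22 and -0.12. The part of these genes in the difference between the lines was not tested.

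**Figure D4:**
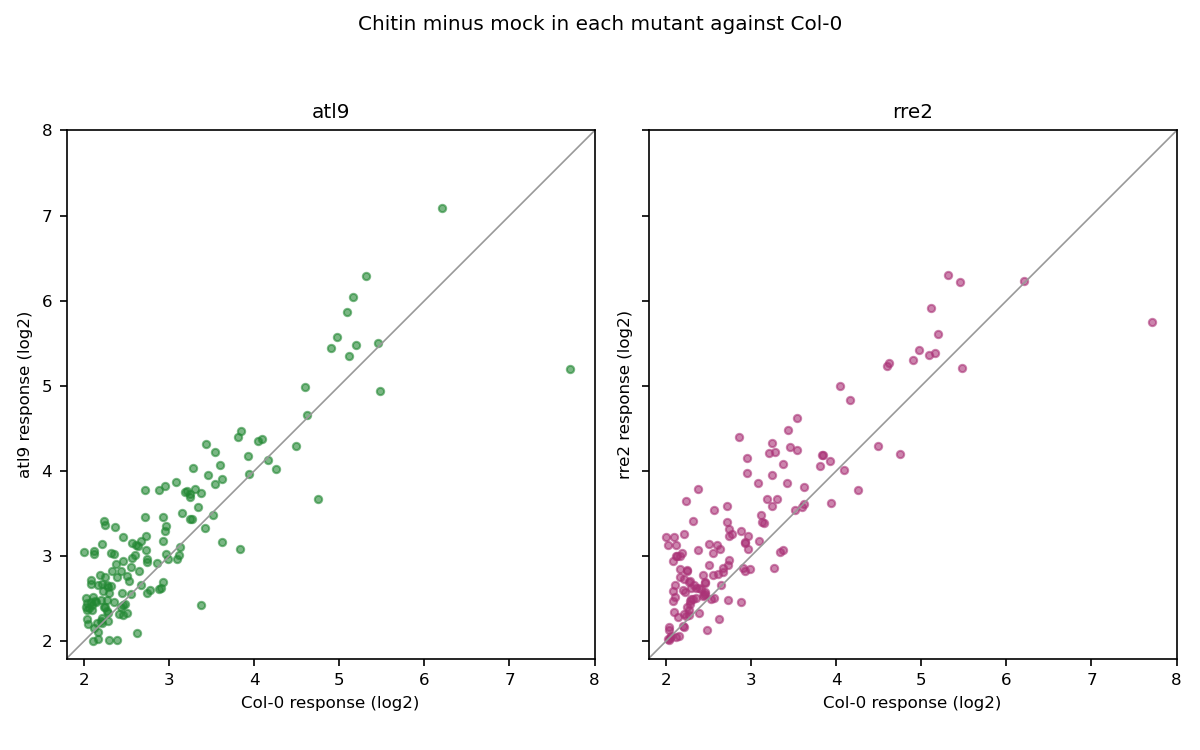
Response of each of the 146 members (chitin minus mock, log2) in *atl9* and in *rre2* against that in Col-0; the line marks equal responses. In *atl9* 110 points and in *rre2* 117 points lie above the line, and *AT2G36440* is the point at 7.71 in Col-0, below it.

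Members varied more between mock arrays than between chitin arrays. The median SD (log2) was 0.31, 0.36 and 0.45 in mock seedlings of Col-0, *atl9* and *rre2*, where the tested probe sets had 0.23, 0.21 and 0.25. In chitin seedlings it was 0.20, 0.22 and 0.19, where the tested probe sets had 0.23, 0.23 and 0.24 and those of a mean level of at least 1 (log2) 0.19, 0.18 and 0.18. The bright probe sets had 0.19, 0.16 and 0.20 in mock seedlings. Many members moved together between mock replicates. On replicate 1 of mock-treated *atl9*, 126 of 146 members were above their group mean (median deviation 0.29), and on replicate 3 of mock-treated *rre2* 115 were (0.32). Replicate 1 of mock-treated *rre2* had 41 above the mean (median deviation -0.33). The corresponding medians over the tested probe sets on these arrays were 0.03, 0.07 and -0.07, and their share above the group mean was not counted. With the arrays of the last scan day alone, the median responses were 2.58, 2.99 and 3.12, and 134, 139 and 145 members reached 2. The earlier days gave 2.70, 3.03 and 2.98, with 138, 142 and 143 members at 2 or more, and all 146 were above 1 in every line on both. The rule averaged these same arrays, so the medians and counts by scan day are a description and nothing is read from them.

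The level over both treatments was tested between the lines (limma, 16 arrays of a pair of lines, Benjamini-Hochberg over all tested probe sets). Apart from the minimum chitin level, it was not itself used to choose the members, but it averages the arrays that gave their responses. With equal mock levels, a larger response in a line raises this level too, so a call need not mean a difference in both treatments. Several calls below came with mock arrays that overlapped between the lines and chitin arrays that did not. All 146 members were among the tested probe sets. Between *atl9* and Col-0, 9 members passed an adjusted p of 0.05, 8 higher and 1 lower in *atl9*, which is close to the background of 6.75% of the tested probe sets (1115, of which 490 higher and 625 lower, or 695 higher and 584 lower on the values as deposited). Between *rre2* and Col-0, 3 members passed, all higher in *rre2*, where the background was 2.86% (193 higher and 280 lower). Between *rre2* and *atl9* limma called 0 members and 1 of the tested probe sets (0.00605%). An unadjusted p under 0.05 was found for 10 of the 146 members, beside 7.94% of the tested probe sets. The first 2 comparisons share the Col-0 arrays. The median difference over the members was 0.08 in *atl9* and 0.10 in *rre2* (tested probe sets -0.02 and 0.01, or 0.01 and -0.00049 on the values as deposited).

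*AT5G05190* (*EDR4*) was the member with the smallest adjusted p and the only one called lower in *atl9*. Its mock levels were 1.76, 1.71, 1.68 and 1.93 times the array median in Col-0, 1.49, 1.42, 1.34 and 1.36 in *atl9* and 1.17, 1.71, 1.86 and 1.97 in *rre2*. The chitin levels were 10.0, 10.2, 9.24 and 9.67, 7.05, 7.37, 7.79 and 7.97 and 9.04, 9.86, 10.6 and 9.21. In both treatments the 4 *atl9* arrays were all below the 4 Col-0 arrays. The difference was -0.35 (log2, SE 0.06, adjusted p = 0.00596), and it stayed called under all 24 alternatives of that comparison (adjusted p 0.00297 to 0.0306).

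*AT5G66650*, of the calcium uniporter family, was higher in *atl9*. Mock levels were 1.20, 1.21, 1.54 and 1.44 in Col-0, 1.91, 2.04, 1.65 and 1.60 in *atl9* and 1.36, 1.72, 4.25 and 2.21 times the array median in *rre2*. Chitin levels were 10.0, 7.25, 8.77 and 6.28, 10.1, 17.5, 14.4 and 15.6 and 12.6, 9.72, 15.1 and 12.3. Every *atl9* array was above every Col-0 array of its treatment. The difference from Col-0 was 0.62 (SE 0.13, adjusted p = 0.0114; 0.0547 with scan day as a block), and in *rre2* it was 0.66 (SE 0.19, adjusted p = 0.0764).

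*AT5G64870*, the flotillin gene, was higher in *atl9* by 0.65 (SE 0.14, adjusted p = 0.0169). In mock seedlings its levels were 0.905, 0.813, 0.805 and 0.874 times the array median in Col-0, 1.46, 0.996, 1.24 and 1.78 in *atl9* and 0.620, 0.626, 1.36 and 1.76 in *rre2*. After chitin they were 7.33, 6.62, 9.43 and 6.58, 7.73, 14.0, 13.7 and 11.8 and 9.30, 10.0, 13 and 9.65. The mock arrays of *atl9* and Col-0 did not overlap, while replicate 1 of chitin-treated *atl9* fell within the Col-0 range. The call held under all 24 alternatives.

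*AT2G36440*, with the array values given above, was called higher in both mutants, by 1.83 in *atl9* (SE 0.38, adjusted p = 0.0132) and by 1.88 in *rre2* (SE 0.41, adjusted p = 0.0256). Its mock intensities were near 0, and with 32 units added the differences were 0.55 in *atl9* (adjusted p = 0.0556) and 0.68 in *rre2* (adjusted p = 0.0478). The call in *rre2* was lost under 8 of 23 alternatives, without a filter and without each of 7 arrays (adjusted p up to 0.0662).

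*CCR2* was higher in *rre2*. The mock arrays read 1.55, 2.16, 2.14 and 1.83 times the array median in Col-0, 2.78, 2.45, 1.44 and 2.91 in *atl9* and 1.97, 1.82, 1.97 and 2.13 in *rre2*, and the Col-0 and *rre2* arrays overlapped. The chitin arrays read 8.99, 7.23, 8.16 and 7.92, 12.2, 15.3, 12.2 and 11.4 and 13.3, 17.2, 15.2 and 15.1. Here all *rre2* arrays and all *atl9* arrays were above all Col-0 arrays. The difference in *rre2* was 0.48 (SE 0.09, adjusted p = 0.0125) and was called under all 24 alternatives. In *atl9* it was 0.47 (SE 0.14, adjusted p = 0.0518).

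The related gene *AT5G14700* was also higher in *rre2*. It stood at 4.52, 5.84, 4.41 and 5.46 in mock-treated Col-0, 5.14, 3.80, 3.82 and 4.43 in *atl9* and 3.80, 4.16, 7.25 and 5.53 times the array median in *rre2*. Chitin arrays had 27.9, 18.9, 26.1 and 21.3, 31.5, 48.8, 39.6 and 33.7 and 45.8, 46.9, 46.9 and 53.8. Mock arrays of Col-0 and *rre2* overlapped and chitin arrays did not. The *atl9* chitin arrays were also all above those of Col-0, and the difference in *atl9* was 0.23 (SE 0.12, adjusted p = 0.244). The difference in *rre2*, 0.53 (SE 0.13, adjusted p = 0.047), was lost under 14 of 24 alternatives.

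The other 5 calls in *atl9* were probe sets without an annotation entry, all higher. The first, 251336_at, had chitin levels of 11.6, 14.1, 11.7 and 11.7 times the array median in Col-0, 23.1, 23.4, 23.3 and 25.4 in *atl9* and 17.6, 18.2, 28.8 and 24.4 in *rre2*. Its mock levels were 2.62, 3.75, 2.79 and 2.25, 3.33, 3.30, 2.32 and 2.55 and 2.15, 3.44, 3.18 and 2.29. Between Col-0 and *atl9* the mock arrays overlapped and the chitin arrays were fully apart. The difference over both treatments was 0.49 (SE 0.11, adjusted p = 0.0193, or 0.0533 with scan day as a block). The *rre2* chitin arrays were also all above those of Col-0, and the difference in *rre2* was 0.39 (SE 0.14, adjusted p = 0.152).

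For 264758_at the chitin levels were 18.6, 18.1, 19.9 and 18.4 in Col-0, 33.9, 38.0, 39.0 and 39.5 in *atl9* and 27.6, 31.6, 42.2 and 28.4 times the array median in *rre2*. Its mock levels were 2.09, 2.05, 1.99 and 2.82, 2.95, 1.54, 2.53 and 3.75 and 2.40, 1.69, 2.57 and 2.28. Again the mock arrays of Col-0 and *atl9* overlapped and the chitin arrays did not (0.61, SE 0.14, adjusted p = 0.0238, or 0.0507 without a filter). The *rre2* chitin arrays too were all above those of Col-0, with a difference over both treatments of 0.38 (SE 0.12, adjusted p = 0.0877).

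Smaller margins were left for the last 3. The probe set 260046_at had mock levels of 4.30, 5.02, 3.58 and 3.44 in Col-0, 5.38, 6.20, 4.80 and 4.84 in *atl9* and 5.09, 5.20, 4.40 and 4.43 times the array median in *rre2*. With chitin it had 17.7, 18.6, 20.8 and 17.6, 27.4, 20.6, 23.9 and 28.7 and 20.8, 21.6, 21.8 and 22.5. The Col-0 and *atl9* arrays overlapped in both treatments, and the difference was 0.40 (SE 0.10, adjusted p = 0.0295). For 251054_at the gap lay in mock seedlings, where it had 2.56, 3.99, 3.12 and 3.15 in Col-0, 4.85, 4.78, 4.49 and 5.20 in *atl9* and 5.11, 2.96, 5.07 and 3.73 in *rre2*. After chitin it had 21.3, 17.2, 19.9 and 19.9, 19.9, 19.5, 20.8 and 22.4 and 20.0, 19.4, 21.7 and 18.2, with overlap (difference 0.34, SE 0.09, adjusted p = 0.0324). Last, 266821_at had mock levels of 3.23, 1.93, 3.25 and 3.11, 5.02, 2.36, 3.47 and 4.54 and 2.38, 1.89, 7.60 and 4.13. Its chitin levels were 43.5, 23.2, 26.1 and 23.1, 42.5, 54.4, 50.1 and 58.4 and 32.8, 39.9, 58.5 and 48.1, and both treatments overlapped between Col-0 and *atl9* (0.63, SE 0.18, adjusted p = 0.048). These 3 calls were lost under 10, 15 and 17 of 24 alternatives.

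**Figure D5:**
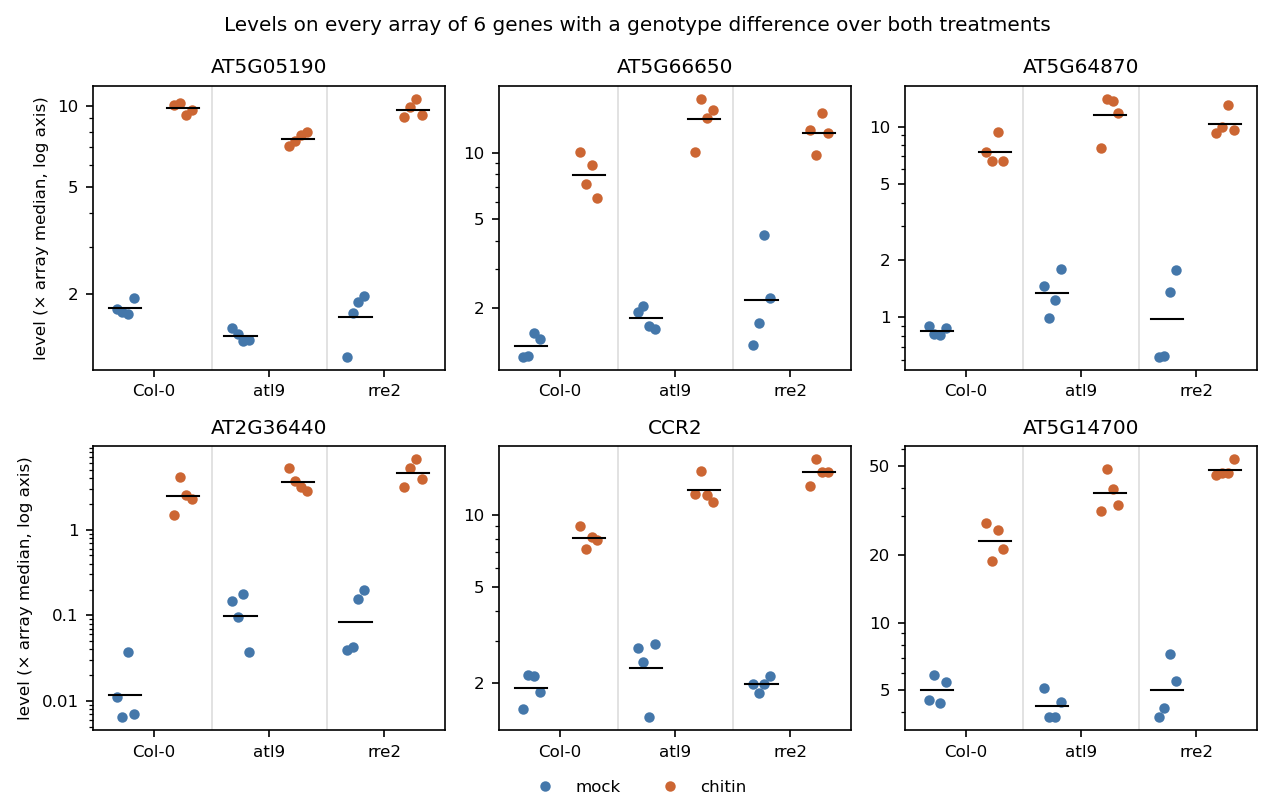
Level on every array of 6 annotated members called in at least 1 comparison of lines, in multiples of the array median on a log axis; blue points are mock arrays, orange points chitin arrays, and bars the mean of 4 arrays on the log2 scale. *AT5G05190* is lower in *atl9* in both treatments and *AT5G66650* is higher in *atl9* in both. *CCR2* and *AT5G14700*, called in *rre2* alone, are higher than in Col-0 in both mutants after chitin.

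Few members belonged to families that could be recognised by gene symbol, because most annotated members carry only a locus code. Beside 502 tested probe sets (3.04%) with a response of at least 1 in all 3 lines, the families gave these counts. Of 6 WRKY factors, 3 reached 1 in all lines (*WRKY53*, *WRKY22* and *WRKY6*). Of 16 calcium sensors and channels 4 did (*GLR2.8*, *GLR2.9*, *CML37* and *CML42*), and of 14 ubiquitin ligases 3 did (*PUB22*, *PUB23* and *PUB24*). Of 41 cell wall enzymes 2 did, *XTH18* and *CSLC04*, which encodes a glucan synthase of xyloglucan, and of 20 transporters 1 did, *AT5G52050*. The count was 1 of 9 for tetraspanins (*TET9*), 1 of 7 for auxin (*GH3.9*, of the auxin-conjugating GH3 family) and 1 of 1 for C2H2 repressors (*STZ*). It was 0 of 12 for glutathione transferases, 0 of 6 for bHLH factors, 0 of 4 for gibberellin and cytokinin genes and 0 of 3 for receptor kinases. No NADPH oxidase and no heat shock factor was recognised by symbol. The count was 0 in each of the other families that had probe sets tested, 1 or 2 apiece. These counts leave out genes known here by locus code or probe set alone. The members *AT3G12910* (NAC), *AT1G22810* and *AT2G33710* (ERF), *AT1G61360* (receptor kinase) and *AT5G37490* (PUB21) were therefore not counted in their families. No probe set counted in these families had a response of -1 or less in all lines, where 55 of all tested probe sets had.

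The annotated members were short genes. In the RefSeq table of the TAIR10.1 assembly, 75 of them had a length, with a median of 1416 bp, against 2301 bp for 8963 annotated probe sets tested. A length under 1500 bp was found for 43 of the 75 (57.3%), against 19.3%. On chromosomes 1 to 5 lay 20, 16, 8, 14 and 18 of the 76, and the shares differed most on chromosome 3 (10.5% of the annotated members, 20.0% of the probe sets tested) and chromosome 2 (21.1% against 15%). Apart from the acetyltransferase pair, 1 other pair lay close together, *AT5G28610* and *AT5G28630*, with 2 protein-coding genes between them.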

How the data were processed

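ATH1 arrays (Affymetrix) measured total RNA of whole seedlings in 6 groups of 4. The deposited intensity values were, per the labels, made by the authors with GeneChip Operating Software 1.1 at a target intensity of 500 from 15 µg of cRNA, and instrument settings of each array were deposited beside them. The labels also describe division by the array median, which the deposited values had not undergone. Array medians were therefore divided out here, without an offset, before log2. No detection calls were used, and 4 arrays per group limit the precision.

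Lines were compared with limma 3.58.1 (R 4.3.3) on log2 values of 16 arrays, over mock and chitin together, for the 72.7% of non-control probe sets with the highest mean (the study's count of genes present), with Benjamini-Hochberg adjustment. Alternatives were other scalings, an offset of 32, other filters, blocks for scan day and replicate number, and each array left out. Same-numbered arrays deviated together hardly more (16 of 60 pairs had a correlation above 0.1, mean 0.01) than arrays of other numbers (45 of 180, mean -0.002). The samples were therefore not treated as paired, although these correlations cannot exclude a batch shared by a number. Arrays of the same scan day deviated together more (37 of 79 pairs, mean 0.09) than arrays of other days (24 of 161, mean -0.04).

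The members, the gene families and the tests were chosen with earlier results of these data known. Genes named are the 12 annotated members with the largest mean response, members of families recognised by symbol, called members, those with the largest range over the lines, those at the threshold and those of highest or lowest mock level, as well as further members by role, chosen after their values were seen. Roles come from general knowledge of the genes, names from the array annotation and the RefSeq table of TAIR10.1. Of all probe sets, 13513 matched 1 gene and 503 several, and 8794 had no entry. No sequence is shown, as none was read here.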

Additional observations from a re-analysis of the deposited data

Results flagged for a closer look

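For the 76 members with 1 gene, and for the median over all members, each of the 6 groups was searched for 1 array that lay far from the other 3 (gap to the nearest over the range of the group on the log2 scale, above Dixon's 95% critical value). Of 462 group values 28 (6.06%) had such an array, where chance gives about 1 in 20. They comprised 17 low and 11 high arrays, 13 in mock and 15 in chitin groups. Values below are levels in multiples of the array median, and no explanation was weighed.

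Chitin-treated Col-0 replicate 1 accounted for 6 of the 28, in both directions. It was low for *AT3G48650* (2.5, others 5.41 to 6.16), for the peroxidase gene *AT5G39580* (11.8, others 20.0 to 20.2) and for *AT5G52760* (8.28, others 18.2 to 21.3). It was high for the lipase gene *DLAH* (36.1, others 26.0 to 27.2), for *AT4G28085* (35.7, others 26.9 to 28.1) and for the peptide gene *AT3G10930* (16.9, others 11.1 to 11.6). On chitin-treated Col-0 replicate 3, *AT1G51920* (6.99) and the chitinase family gene *AT4G01700* (48.3, others 56.3 to 56.7) were low.

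In mock-treated Col-0, replicate 1 was low for *AT4G04480* (0.0271, others 0.20 to 0.29) and for the kinase gene *AT1G67470* (1.71). Replicate 2 was high for the peptide gene *AT2G23270* (7.77, others 2.60 to 3.04) and for *AT4G39670* (10.7, others 5.71 to 6.35). Replicate 3 was low for *AT1G35210* (0.711), *AT5G54720* (0.637) and *AT4G01700* (7.88, others 11.9 to 12.6), and replicate 4 was high for *AT2G36220* (7.67).

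In *atl9*, mock replicate 2 was low for the acetyltransferase gene *AT2G32030* (3.10, others 4.5 to 4.65). Mock replicate 3 was low for the metalloproteinase gene *AT1G24140* (2.52) and the aspartyl protease gene *AT3G59080* (2.69), and chitin replicate 4 was low for *AT4G07820* (2.65).

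In *rre2*, mock replicate 1 was low for *AT1G68330* (0.439) and mock replicate 2 high for *AT1G58420* (0.763). Chitin replicate 2 was low for *AT4G39670* (55.5). Chitin replicate 3 was high for *AT2G25735* (62.1), *AT2G36220* (36.0) and *AT2G27660* (13.9). Chitin replicate 4 was high for *AT5G14700* (53.8, others 45.8 to 46.9) and low for the efflux gene *AT5G52050* (3.00, others 5.35 to 5.82).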

How the results depend on the processing

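The count of 146 members became 250 with a response of at least 1.5 in each line and 77 with 2.5, and was 141 to 150 without each array in turn. The median responses became 2.42 in Col-0 and 2.88 in *rre2* on the values as deposited, 2.47 in Col-0 after quantile normalization, and 2.42 and 2.84 with an offset of 32. On the values as deposited the tested probe sets had a median response of -0.16 in Col-0, -0.16 in *atl9* and -0.17 in *rre2*, and the median of the members exceeded it by 2.58, 2.99 and 3.06. Without each array in turn the medians were 2.55 to 2.70 in Col-0, 2.91 to 3.06 in *atl9* and 2.95 to 3.12 in *rre2*.

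The 9 calls in *atl9* became 17 on the values as deposited, 14 after quantile normalization, 14 with the offset, 5 without a filter, 17 with the 11000 brightest probe sets and 4 with scan day as a block, and were 6 to 11 without each array in turn. The calls over all tested probe sets, 490 higher and 625 lower, changed too. They became 695 and 584 as deposited, 563 and 592 after quantile normalization and 593 and 760 with the offset. Without a filter they were 249 and 329 of 22746, and with scan day as a block 205 and 270. The 11000 brightest gave 536 and 739, with 139 members in that fit. The 3 calls in *rre2* became 1 without a filter (over all probe sets 64 higher and 148 lower, against 193 and 280 of those tested). They were 1 to 5 without each array in turn: in Col-0, leaving out mock replicate 1 or 4 or chitin replicate 3 or 4 gave 1, as did *rre2* mock replicate 3 and *rre2* chitin replicates 2 and 3, whereas leaving out Col-0 mock replicate 2 gave 5. A replicate block gave 7 calls in *atl9* and 2 in *rre2*. Between *rre2* and *atl9* there were 0 calls under each alternative run. The member median of *rre2* minus *atl9*, 0.03 with 85 members above 0, became -0.02 (66) on the values as deposited, -0.01 (67) after quantile normalization and -0.04 (62) with scan day as a block. The rule had set every response of a named gene at 2 or more. Of 336 recomputed responses of 28 of the named genes, 315 were still at least 2, and the lowest was 1.79. With the offset, 34 of these responses moved by at least the SD between replicate arrays and 50 did not. No difference of a called member changed sign. The causes of these changes were not tested. The median response on the earlier scan days was added after the data were seen. Promoter motifs were not run.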
